A study of Homo sapiens with 8 samples.

Results

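The transcriptome of HepG2 cells treated with compound 4 was compared with that of cells given the solvent DMSO, leaving cholesterol synthesis and cell division to a pair of counts. The comparison is between the 2 libraries labelled metylcresol, which is compound 4, and the 2 labelled DMSO, 4 of the 8 libraries of the series. The spread used by the test was estimated from all 8 libraries. Every library came from HepG2, a human liver cancer cell line, that overexpressed the drug-metabolizing enzyme CYP2C19 and was kept under blasticidin to hold the introduced gene. Cells were seeded 24 h before treatment and harvested after 24 h with a compound at its IC50 or with DMSO alone. Compound 4 is a bisphenol antioxidant used in plastics, in which a pair of methylphenol rings, each carrying a tert-butyl group, is joined by a methylene bridge, and compounds 5 and 6 are related bisphenols that were given to the other 4 libraries. The labels mark the pair of samples in a group as day 1 and day 2. This is read here as the day of a replicate that all groups share and not as a length of treatment. Nothing in the labels says that the samples of a pair were separate cultures, so the p-values measure only the spread between libraries within the groups. Values below are given for replicate 1 and then replicate 2.

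A hepatocyte exposed to a foreign chemical draws on a few well-known programmes. The receptors AHR, PXR and CAR switch on oxidizing enzymes, conjugating enzymes and export pumps, NRF2 switches on genes that buffer oxidants, ATF4 switches on genes of amino acid supply, MTF1 switches on the metal-binding metallothioneins, and growth factor signals through ERK switch on immediate early genes and the phosphatases that damp them. Liver cells also secrete most plasma proteins and lipoproteins, so their expression is a readout of the differentiated state.

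The 4 libraries held 9791659 and 11444500 counts with DMSO and 10772819 and 13042436 counts with compound 4. Of 60230 genes in the table, 23080 had at least 1 count in the series and 13400 passed the low-count filter and were tested. Levels are given as CPM, counts scaled to a library total of 1000000, which are not corrected for transcript length and so do not rank genes against each other. All 10 liver markers were detected in every library, and their summed level was 37375 and 36233 CPM with DMSO and 33427 and 25695 CPM with compound 4. CYP2C19 itself stood at 27.7 and 16.4 CPM with DMSO and at 31.4 and 44.3 CPM with compound 4, a log2 difference of 0.79 ± 0.26 (SE, n = 2 a group) that missed the threshold (adjusted p = 0.086, edgeR). The counts do not separate the introduced copy of CYP2C19 from the cell's own gene.

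Compound 4 changed the level of 1275 genes at an adjusted p under 0.05 in edgeR's quasi-likelihood test, 9.51% of those tested. Of these, 751 genes (5.6%) were higher and 524 genes (3.91%) were lower than with DMSO. Most changes were moderate. The median log2 fold change was 0.89 among the genes that rose, with the middle part of the distribution between 0.64 and 1.30, and −0.83 among the genes that fell, with sizes between 0.62 and 1.11. At least 2-fold changes were fitted for 291 genes that rose and 174 that fell, and at least 4-fold changes for 77 and 32 genes. The median over all genes tested was 0.01, and the shares of 5.6% and 3.91% are the background for the counts of list members below. Both compound 4 libraries lay beyond both DMSO libraries for every called gene, while over all genes tested 30.4% had both compound 4 libraries above and 28% had both below. A lack of overlap given below for a called gene therefore adds nothing to its call. Together the genes that rose took 83148 and 76267 CPM with DMSO and 124687 and 133289 CPM with compound 4. The genes that fell took 83935 and 84562 CPM with DMSO and 53378 and 48307 CPM with compound 4.

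The count of changed genes depended on single libraries, and each group had 2. Leaving out a DMSO library gave 390 calls (replicate 1) or 43 calls (replicate 2), and leaving out a compound 4 library gave 922 (replicate 1) or 152 (replicate 2). No called gene changed direction in any of those refits or in any other. Calls that were kept in all 10 refits, with other tools, filters, samples and replicates left out, numbered 40, of which 18 were higher and 22 were lower, and 13 of the latter were cholesterol synthesis enzymes. Genes named below are said to be kept in every refit where they belong to the 40, and the others lost their call in at least 1 refit, mostly one that left out a library. The difference was larger between the replicate 2 libraries than between the replicate 1 libraries for 634 of the 751 genes that rose and for 411 of the 524 that fell. The median of the log2 differences was 0.72 in the replicate 1 pair and 1.02 in the replicate 2 pair for the genes that rose, and −0.69 and −0.92 for those that fell.

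**Figure D1:**
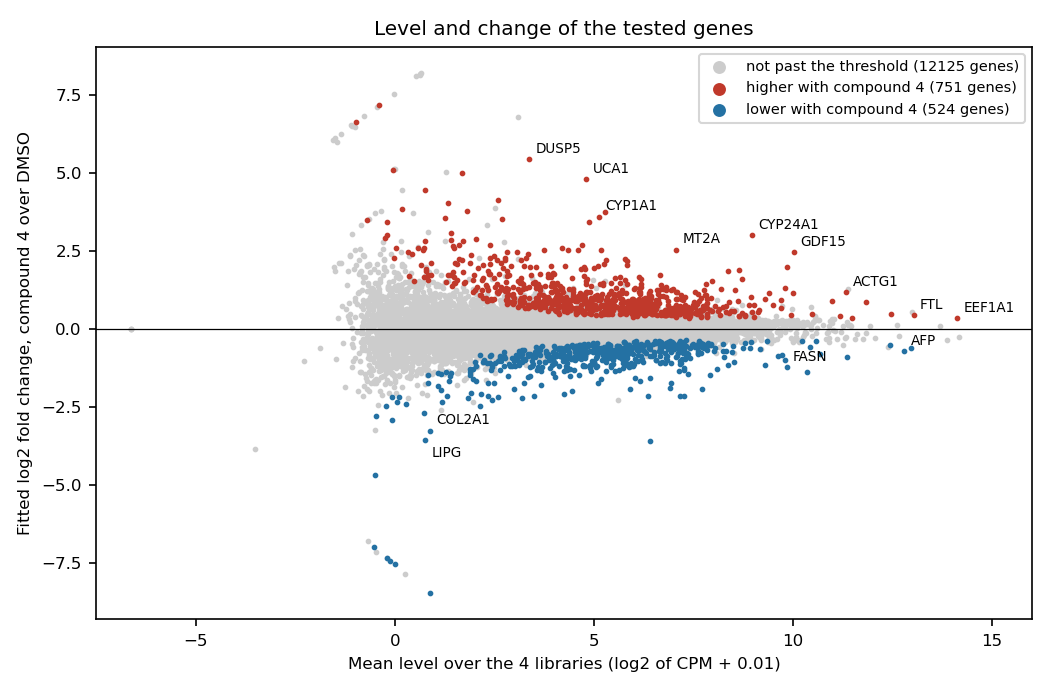
Each point is 1 of the 13400 genes tested, with the mean level over the 4 libraries on the horizontal axis (log2 of CPM plus 0.01) and the fitted log2 fold change of compound 4 over DMSO on the vertical axis. Red points are the 751 genes that were higher and blue points the 524 genes that were lower with compound 4. Genes of high level were called at smaller fold changes than genes of low level, and the points farthest from 0 are genes with few or no counts in a group, whose fitted value depends on the prior count of the fit.

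By kind of gene, protein-coding genes made up 707 of the genes that rose and 513 of those that fell, among 11794 tested. Long non-coding RNA genes were called almost in 1 direction, with 34 higher and 3 lower among 981 tested. Pseudogenes gave 8 higher and 6 lower among 468. Of the 3350 tested genes of lowest level, 166 rose and 41 fell, and of the 3350 of highest level 202 rose and 226 fell.

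The gene with the smallest adjusted p besides the transporter gene SLC16A6 was CYP1A1 (chromosome 15), an oxidizing enzyme of foreign aromatic compounds and the best-known target of the receptor AHR. CYP1A1 stood at 5.94 and 4.69 CPM with DMSO and at 59.5 and 69.1 CPM with compound 4. Both treated libraries were far above both controls, a log2 fold change of 3.60 ± 0.22 (SE) with an adjusted p of 8.8e-05 (edgeR), and the call was kept in all 10 refits. The other 6 tested genes of the AHR list did not pass the test, although all 7 had a positive log2 fold change, with a median of 0.65. With the replicate block 3 of the 7 passed, the others being AHR and ALDH3A1. AHR itself stood at 173 and 149 CPM with DMSO and 242 and 263 CPM with compound 4 (adjusted p = 0.061), TIPARP, a feedback target, had a log2 fold change of 0.10, and NQO1 stood at 1365 and 1429.7 CPM with DMSO and 1472 and 1344 CPM with compound 4. CYP1A2, CYP1B1, AHRR and LRAT were under the low-count filter, so that 1 of 7 was higher. SLC16A6 stood at 5.53 and 4.52 CPM with DMSO and 53.8 and 53.6 CPM with compound 4, and its call was also kept in all 10 refits. The RefSeq promoter of CYP1A1 (build GRCh38.p14, minus strand) is shown because it holds the core of the xenobiotic response element, GCGTG on either strand, which is bound by AHR with its partner ARNT. The sequence covers chr15:74725529-74725778, the 250 bases before the start, with the single match in capitals, 57 bases before the start.
CYP1A1: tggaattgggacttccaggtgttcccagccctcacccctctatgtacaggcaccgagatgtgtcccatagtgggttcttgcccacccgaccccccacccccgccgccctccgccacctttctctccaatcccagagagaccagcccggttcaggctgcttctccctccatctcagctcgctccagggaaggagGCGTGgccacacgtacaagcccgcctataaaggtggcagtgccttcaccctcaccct
This short core is common, and 36.3% of all 27305 promoter windows, which also hold the 50 bases after the start, contained it. It was found in 47.5% of the promoters of genes that rose, 50.5% of those that fell and 51.2% of all tested genes with a promoter.

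Among genes under PXR and CAR, 3 of 13 tested were higher and none was lower, with 11 further listed genes under the filter, including CYP3A4. CYP3A5, a drug-oxidizing enzyme, stood at 4.41 and 2.34 CPM with DMSO and 19.3 and 12.9 CPM with compound 4, a log2 fold change of 2.27 ± 0.38 (SE, adjusted p = 0.0097, edgeR). CYP2S1, which is also known as an AHR target, went from 26.9 and 21 CPM to 69.5 and 82.3 CPM, and CYP2B6, a classical CAR target, from 10.2 and 6.45 CPM to 20.4 and 25.7 CPM. The libraries of the groups did not overlap for any of these genes. CYP24A1, the enzyme that inactivates vitamin D, was at 133 and 87.3 CPM with DMSO and at 853 and 919.7 CPM with compound 4. Its log2 fold change was 3.01 ± 0.20 (SE, adjusted p = 0.00012, edgeR), kept in every refit, as was that of CYP2S1.

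None of the 16 tested phase II enzymes, which attach glucuronate, sulfate or other groups, passed the test, and their median log2 fold change was 0.01. Of 19 tested drug transporters, 3 rose and 2 fell. ABCC3, an export pump of conjugates on the blood side of the hepatocyte, was at 63.0 and 51.2 CPM with DMSO and 130.1 and 140.4 CPM with compound 4 (log2 fold change 1.25), and its call was kept in every refit. ABCC2, the pump on the bile side, stood at 584 and 565 CPM with DMSO and at 979 and 1197 CPM with compound 4. SLC51B, a subunit of the bile acid exporter, went from 10.4 and 13.6 CPM to 30.3 and 28.7 CPM. The uptake carrier SLCO4C1 fell from 6.05 and 8.63 CPM to 1.97 and 0.76 CPM, a log2 fold change of −2.46, and SLC22A7, an organic anion carrier that lost its call in DESeq2, had −1.30.

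Metallothioneins, small proteins that bind zinc and other metals through cysteines, rose as a group. All 5 tested metallothionein genes were higher, and MT1A, MT1H, MT1M and MT3 were under the filter. MT2A stood at 38.3 and 40.0 CPM with DMSO and at 196 and 263 CPM with compound 4, a log2 fold change of 2.55 ± 0.22 (SE, adjusted p = 0.0012, edgeR). MT1E went from 18.1 and 22.6 CPM to 74.1 and 112 CPM, MT1G from 20.9 and 24.2 CPM to 59.2 and 79.6 CPM, and MT1X from 9.43 and 11.6 CPM to 20.5 and 31.8 CPM. Every treated library was above every control, and the calls of MT2A and MT1E were kept in all 10 refits. The zinc exporter SLC30A1 was at 72.1 and 71.6 CPM with DMSO and 119 and 136 CPM with compound 4. SLC30A10, which exports manganese, fell from 9.53 and 13.1 CPM to 6.29 and 4.87 CPM. MTF1, the metal-sensing factor, had a log2 fold change of −0.14 and did not pass. Genes of this family are near-identical in sequence, and reads may have been split among them. The counts of single metallothioneins are therefore uncertain. Over the 10 tested genes of the list, which also holds zinc transporters and MTF1, 6 rose and 1 fell, with a median of 0.96.

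The promoter of MT2A is shown for its dense set of metal response element cores, written TGCGCNC and TGCACNC and searched on both strands. Those motifs were added after the values were seen. The window of 250 bases before the start, chr16:56608334-56608583 (RefSeq, GRCh38.p14, plus strand), holds 7 matches, in capitals, the farthest 246 and the nearest 8 bases before the start.
MT2A: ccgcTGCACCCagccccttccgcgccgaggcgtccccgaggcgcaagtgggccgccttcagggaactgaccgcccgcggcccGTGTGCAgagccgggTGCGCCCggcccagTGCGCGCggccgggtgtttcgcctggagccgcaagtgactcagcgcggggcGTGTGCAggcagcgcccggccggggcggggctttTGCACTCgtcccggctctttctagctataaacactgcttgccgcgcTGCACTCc
The first form was found in 19.97% and the second in 11.9% of all promoters. They were in 27.5% and 14.9% of the promoters of genes that rose, 29.02% and 10.7% of those that fell and 31.0% and 11.4% of those of tested genes. The match 88 bases before the start overlaps a xenobiotic response element core. Of 7 listed genes with a promoter in the reference, 4 held either form (MT1H, MT1X, MT2A and SLC30A1).

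Iron genes changed in both directions, with 4 of 17 tested higher and 2 lower. HAMP, the liver hormone that closes the iron exporter, was the gene with the largest rise of the list, from 30.3 and 8.79 CPM to 81.3 and 100.1 CPM (log2 fold change 2.24 ± 0.43, SE, adjusted p = 0.015, edgeR). The DMSO libraries differed more from each other for HAMP than the treated ones did. The iron exporter SLC40A1 rose from 36.7 and 24.8 CPM to 65.5 and 70.5 CPM. The ferritin light chain FTL, which stores iron, went from 6789 and 7357 CPM to 9589.9 and 9593 CPM, and FTH1, the heavy chain, from 2457 and 2511 CPM to 3254 and 3144 CPM. Transferrin (TF), the iron carrier of plasma, fell from 6799 and 6128 CPM to 4976 and 4064 CPM, and ACO1, which is also the iron regulatory protein, had a log2 fold change of −0.55. FTL lost its call with the stricter filter on counts, and FTH1 also with DESeq2 size factors and with only the 4 libraries fitted. The transferrin receptor TFRC, at −0.11, did not pass.

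Genes known as NRF2 targets formed one of the most frequently called lists. Of 27 tested, 17 were higher and 1 was lower, with a median log2 fold change of 0.72 against 0.01 over all genes. GCLM, the modifier subunit of the enzyme that makes glutathione's precursor, was at 52.2 and 53.7 CPM with DMSO and 98.8 and 127 CPM with compound 4. TXNRD1, thioredoxin reductase, was at 449.5 and 404 CPM and then 728 and 949.8 CPM, and SRXN1, sulfiredoxin, at 128 and 119 CPM and then 228 and 311 CPM. The groups did not overlap for these genes, and the replicate 2 library of compound 4 was the highest for each.

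AKR1B10, an aldehyde reductase, rose from 435 and 389.6 CPM to 979 and 872 CPM (log2 fold change 1.17 ± 0.12, SE, adjusted p = 0.002, edgeR), which was kept in every refit. AKR1C1, which reduces steroids and aldehydes, was at 2829.7 and 2315 CPM with DMSO and 4884 and 4586 CPM with compound 4, and AKR1C2 was at 259 and 211 CPM and then 439 and 421 CPM. The AKR1C genes are close in sequence, so that reads between them are uncertain. HMOX1, heme oxygenase, went from 107 and 95.2 CPM to 181 and 137 CPM. NQO1, a quinone reductase often used to read out NRF2, gave a log2 fold change of 0.01 ± 0.09 and did not pass.

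Among the wider glutathione and thioredoxin genes, 1 of 30 rose and 3 fell, and the median was −0.12. GLRX, glutaredoxin, was the one that rose, from 129 and 132 CPM to 311 and 303 CPM (log2 fold change 1.24), a call kept in every refit. The glutathione transferase GSTM2 fell from 3.59 and 3.43 CPM to 1.31 and 0.532 CPM, GSTM4 had a log2 fold change of −0.81 and GSTA1 one of −1.67. GSTM2 and GSTM4 overlap on the same strand, so that their reads are not certainly apart. The core of the antioxidant response element, TGACNNNGC, was in the promoters of 19.3% of the genes that rose, 15.9% of those that fell, 15.4% of the tested genes and 13.6% of all genes with a promoter. Of 21 listed NRF2 targets with a promoter in the reference, 5 held it (GCLM, TXNRD1, PGD, ME1 and PIR).

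Amino acid supply also rose in part. ASNS, asparagine synthetase, was at 59.1 and 53.3 CPM with DMSO and 111 and 184 CPM with compound 4, a log2 fold change of 1.40. SLC7A11, which brings in cystine and is also an NRF2 target, went from 64.9 and 56.6 CPM to 109 and 158 CPM, and its partner chain SLC3A2 from 225 and 219.9 CPM to 357 and 697 CPM. MTHFD2, a mitochondrial one-carbon enzyme, went from 141 and 133 CPM to 202 and 345 CPM. For ASNS, SLC3A2, SLC7A11 and MTHFD2 the replicate 2 library of compound 4 was well above the replicate 1 library, and both were above DMSO.

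Of 18 tested amino acid transporters, 6 rose and none fell. Of 21 cytosolic tRNA synthetases, which charge tRNAs, 4 rose (AARS1, CARS1, GARS1 and YARS1) and none fell. CARS1 lost its call with DESeq2 size factors. The list of ATF4 and CHOP targets gave 5 higher of 19 tested and none lower, with a median of 0.62, and 9 passed with the replicate block. They were NUPR1, a stress-induced chromatin protein that rose from 5.23 and 4.61 CPM to 13.7 and 19.1 CPM, ADM2, GDF15, VLDLR and CEBPG. ATF4, with a log2 fold change of 0.40, and DDIT3, which encodes CHOP, at 13.9 and 11.1 CPM with DMSO and 20.3 and 35.5 CPM with compound 4, did not pass (adjusted p = 0.09 and 0.16, edgeR). Enzymes of serine, asparagine, proline and one-carbon metabolism were split, 3 higher and 3 lower of 16. ASNS overlaps another annotated gene on the same strand, so that its counts are uncertain to that extent.

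The ASNS promoter is shown because it holds the composite site of CHOP and ATF4, TGATGNAA on either strand. The sequence is chr7:97872409-97872658 (RefSeq, GRCh38.p14, minus strand), the 250 bases before the start, with the match in capitals, 68 bases before the start.
ASNS: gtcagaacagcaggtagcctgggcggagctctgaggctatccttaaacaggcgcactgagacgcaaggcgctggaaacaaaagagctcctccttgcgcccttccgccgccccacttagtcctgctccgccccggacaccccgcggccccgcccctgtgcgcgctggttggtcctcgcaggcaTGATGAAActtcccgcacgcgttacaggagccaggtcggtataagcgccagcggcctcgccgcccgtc
The motif was in 2.91% of promoters of genes that rose, 1.71% of those that fell, 1.64% of tested genes and 3.67% of all promoters. Of 16 genes of the ATF4 and CHOP list with a promoter in the reference, 2 held it (CHAC1 and FGF21). Neither is among the listed genes that passed, and ASNS is counted in another list.

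Few genes of protein folding passed the test. None of 20 heat shock protein genes and none of 30 proteasome and ubiquitin genes passed, with medians of 0.11 and −0.03, while 3 heat shock genes passed with the replicate block. Of 23 chaperone and degradation genes of the endoplasmic reticulum, DNAJB9 rose from 22.0 and 23.2 CPM to 38.1 and 40.1 CPM. CALR, the calcium-binding chaperone calreticulin, fell from 1547 and 1730.2 CPM to 1222 and 981 CPM, and XBP1, a transcription factor of the unfolded protein response, fell from 239 and 243 CPM to 189 and 157 CPM. Among 30 genes of ribosome biogenesis, NOP56 was the only one called, with −0.62. The 13 genes encoded in mitochondrial DNA gave no call and a median of −0.34. All 13 had a negative log2 fold change, and 7 passed with the replicate block and 10 without the low-count filter.

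Some genes downstream of growth factor signalling rose, and none passed as lower. DUSP4, a phosphatase that switches off ERK in the nucleus, was at 3.07 and 2.09 CPM with DMSO and 10.8 and 17.6 CPM with compound 4. DUSP6, which does so in the cytoplasm, was at 183 and 162 CPM and then 276 and 277 CPM. SPRY4, a Sprouty inhibitor of the pathway, was at 97.5 and 90.5 CPM and then 179 and 218 CPM. With DUSP5, at 0.512 and 0.419 CPM and then 8.35 and 32.2 CPM, and IER3 they made 5 of the 19 tested ERK feedback genes, and the 14 others did not pass. Of 19 tested immediate early transcription factors, 8 rose, none fell and the median was 0.66. KLF4 went from 1.95 and 1.67 CPM to 6.00 and 8.97 CPM, FOSL1, a FOS-related subunit of AP-1, from 8.10 and 8.63 CPM to 14.4 and 21.4 CPM, and JUN from 103 and 80.7 CPM to 137 and 159 CPM. Among ligands of the EGF receptor, EREG rose from 16.8 and 12.3 CPM to 41.7 and 80.1 CPM and TGFA rose from 17.6 and 19.0 CPM to 29.8 and 28.6 CPM, and 3 of the 10 genes of that family were higher.

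Among genes that rose, those with the largest fold changes were low or absent with DMSO. GPRASP3, on the X chromosome, had 0 counts in both DMSO libraries and 1.41 and 1.60 CPM with compound 4, which is at least 4.89-fold higher when set against 3 counts in a DMSO library. BATF, a transcription factor of the AP-1 family, had 0.307 and 0.251 CPM with DMSO and 3.00 and 6.39 CPM with compound 4. C5AR1, the receptor of complement fragment C5a, was at 0.512 and 0.754 CPM and then 5.82 and 16.8 CPM, and lost its call with the replicate block. AMPD3, an AMP deaminase, had 0.205 and 0.0837 CPM with DMSO and 1.22 and 2.97 CPM with compound 4. For BATF, C5AR1 and AMPD3 the replicate 2 library of compound 4 was well above the other treated library, and the DMSO values rest on few reads.

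EMP1, an epithelial membrane protein, had 0.307 and 0.0837 CPM with DMSO and 2.06 and 10.3 CPM with compound 4. It belongs to a list of surface and pericellular genes of migrating epithelial cells, of which 6 of 14 tested rose and none fell, with a median of 1.67. AXL, a receptor tyrosine kinase, was at 8.92 and 5.44 CPM with DMSO and 27.5 and 55.4 CPM with compound 4. L1CAM, an adhesion molecule, was at 8.81 and 3.27 CPM and then 25.5 and 43.0 CPM. The EMP1 promoter, chr12:13196476-13196725 (RefSeq, GRCh38.p14, plus strand), is shown for its AP-1 sites, TGANTCA on either strand, in capitals at 175 and 48 bases before the start.
EMP1: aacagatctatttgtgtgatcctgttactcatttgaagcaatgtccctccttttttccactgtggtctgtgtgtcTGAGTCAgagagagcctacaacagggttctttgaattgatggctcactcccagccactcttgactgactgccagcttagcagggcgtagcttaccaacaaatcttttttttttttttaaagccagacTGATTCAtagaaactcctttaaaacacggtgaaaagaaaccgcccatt
An AP-1 site was in 8.55% of the promoters of genes that rose, 3.17% of those that fell, 4.32% of tested genes and 7.76% of all promoters. The E-box CACGTG was in 10.7%, 9.51%, 10.4% and 7.43% in the same order, and the sterol regulatory element TCACNCCAC in 1.82%, 1.46%, 1.11% and 1.15%. The shares rest on 550 genes that rose, 410 that fell and 10039 tested with a promoter in the reference, and no test was made of them.

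S100 proteins, small calcium-binding proteins of which many lie in a cluster on chromosome 1, had the highest share of members called higher among the lists with more than 1 tested gene. Of 12 tested, 8 were higher and none was lower, with a median of 1.46. S100A6 went from 12.3 and 9.55 CPM to 42.3 and 44.1 CPM, S100A11 from 15 and 10.9 CPM to 51.9 and 49.1 CPM, and S100P, which lies elsewhere in the genome, from 145 and 108 CPM to 369.7 and 372 CPM. The treated libraries were close to each other in all of these genes, and the call of S100P was kept in every refit. S100A4 was at 9.74 and 7.12 CPM with DMSO and 19.5 and 23.7 CPM with compound 4. S100A3 overlaps S100A4 on the same strand, so that their reads are not certainly apart. S100A13 lost its call in DESeq2.

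Of 24 tested actin and contraction genes, 12 were higher and CNN3, a calponin, was lower, with a median of 0.39. ACTG1, cytoplasmic gamma actin, stood at 1756 and 1431 CPM with DMSO and at 3519 and 3659 CPM with compound 4, and FLNA, the actin cross-linker filamin A, at 557 and 469 CPM and then 1084 and 1443 CPM. TAGLN, transgelin, had 0.307 and 0.502 CPM with DMSO and 1.88 and 3.19 CPM with compound 4. Of 14 tubulins, 5 rose and none fell although the median was 0.04. TUBA4A went from 21.5 and 19.6 CPM to 42.4 and 39.1 CPM and TUBB6 from 4.10 and 3.10 CPM to 9.38 and 8.74 CPM.

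Of 17 tested YAP and TEAD targets, 6 rose, among them ANKRD1, a muscle ankyrin repeat protein, from 1.74 and 1.09 CPM to 7.79 and 10.3 CPM, and CCN1, a matricellular protein, from 8.40 and 4.69 CPM to 14.5 and 20.3 CPM. Of 9 integrin subunits, 4 rose, and ITGAV was at 114 and 104 CPM with DMSO and 153 and 162 CPM with compound 4. Matrix genes were split, with 4 higher and 2 lower of 27, and 10 passed with the replicate block. TIMP2, an inhibitor of matrix proteases, rose from 8.71 and 6.78 CPM to 26.6 and 35.6 CPM. COL2A1, the collagen of cartilage, fell from 3.07 and 3.52 CPM to 0.281 and 0.38 CPM. The groups of both genes were well apart.

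Signals to other cells rose in a few cases. CSF1, the macrophage growth factor, went from 5.23 and 4.19 CPM to 14.7 and 22.4 CPM and CCL20, a chemokine, from 186 and 156 CPM to 466 and 362 CPM, among 4 of 16 inflammatory genes that were higher. CCR6, the receptor of CCL20, was at 26.4 and 27.7 CPM with DMSO and 68.1 and 66.8 CPM with compound 4. OAS1, an interferon-induced enzyme, was at 38.6 and 35.8 CPM and then 94.1 and 90.3 CPM. ENG, the TGF-beta coreceptor endoglin, was at 7.99 and 6.53 CPM and then 25.2 and 24.2 CPM, a log2 fold change of 1.77 ± 0.16 (SE, adjusted p = 0.0013, edgeR). The replicates of CCR6, OAS1 and ENG were close together and their calls were kept in every refit, together with those of SPINK1, a trypsin inhibitor, of the semaphorin receptor PLXND1, and of ATOH8, TSKU and HAGHL. SPINK1 stood at 51.6 and 49.6 CPM with DMSO and 114 and 123 CPM with compound 4. TGF-beta targets gave 5 higher of 22 (8 past the threshold with the replicate block) and Notch pathway genes 3 higher of 12, none lower in either, including the ligand JAG1 at 183 and 156 CPM and then 469 and 795 CPM.

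Of 981 long non-coding RNA genes tested, 3.47% were higher and 0.306% were lower, both under the 5.6% and 3.91% of all genes. UCA1, a cancer-associated RNA on chromosome 19, went from 2.46 and 1.42 CPM to 41.9 and 65.8 CPM, a log2 fold change of 4.82 ± 0.65 (SE, adjusted p = 0.0047, edgeR). NEAT1, the scaffold RNA of nuclear paraspeckles, went from 178 and 110.3 CPM to 497 and 536 CPM, and LUCAT1 from 3.69 and 2.34 CPM to 10.0 and 14 CPM. All treated libraries were above all controls for these 3 RNAs. LINC01484 went from 5.12 and 2.93 CPM to 19.7 and 25.8 CPM. Of the 3 long non-coding RNA genes that fell, ENSG00000248015 went from 7.99 and 6.53 CPM to 1.60 and 1.75 CPM, a call kept in every refit, and LINC02972 from 10.5 and 10.6 CPM to 4.88 and 2.51 CPM. NEAT1 and LUCAT1 were chosen for naming after their values were seen.

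Over all genes tested, 5.6% were higher and 3.91% lower. In the autophagy list, 4 of 32 genes rose and 1 fell, with a median of 0.30. SQSTM1, the cargo receptor p62, was at 399 and 351 CPM with DMSO and 1325 and 1632 CPM with compound 4. GABARAPL1, a protein conjugated to autophagosome membranes, was at 12.3 and 10.5 CPM and then 23.1 and 28.4 CPM, and WIPI1 at 41.1 and 25.5 CPM and then 63.8 and 69.6 CPM. Of 36 lysosomal genes, 5 rose and 2 fell. CTSB, the protease cathepsin B, was at 706 and 578 CPM with DMSO and 1468 and 1359.9 CPM with compound 4, while LIPA, the acid lipase that frees cholesterol in lysosomes, had a log2 fold change of −0.66. Of 18 BCL2 family genes, the 3 that rose were MCL1, BCL2L1 and BCL2L2, all of which oppose apoptosis, and none fell. MCL1 was at 129 and 126 CPM and then 202 and 267 CPM. The p53 targets were mixed, with 2 higher and 3 lower of 23.

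**Figure D2:**
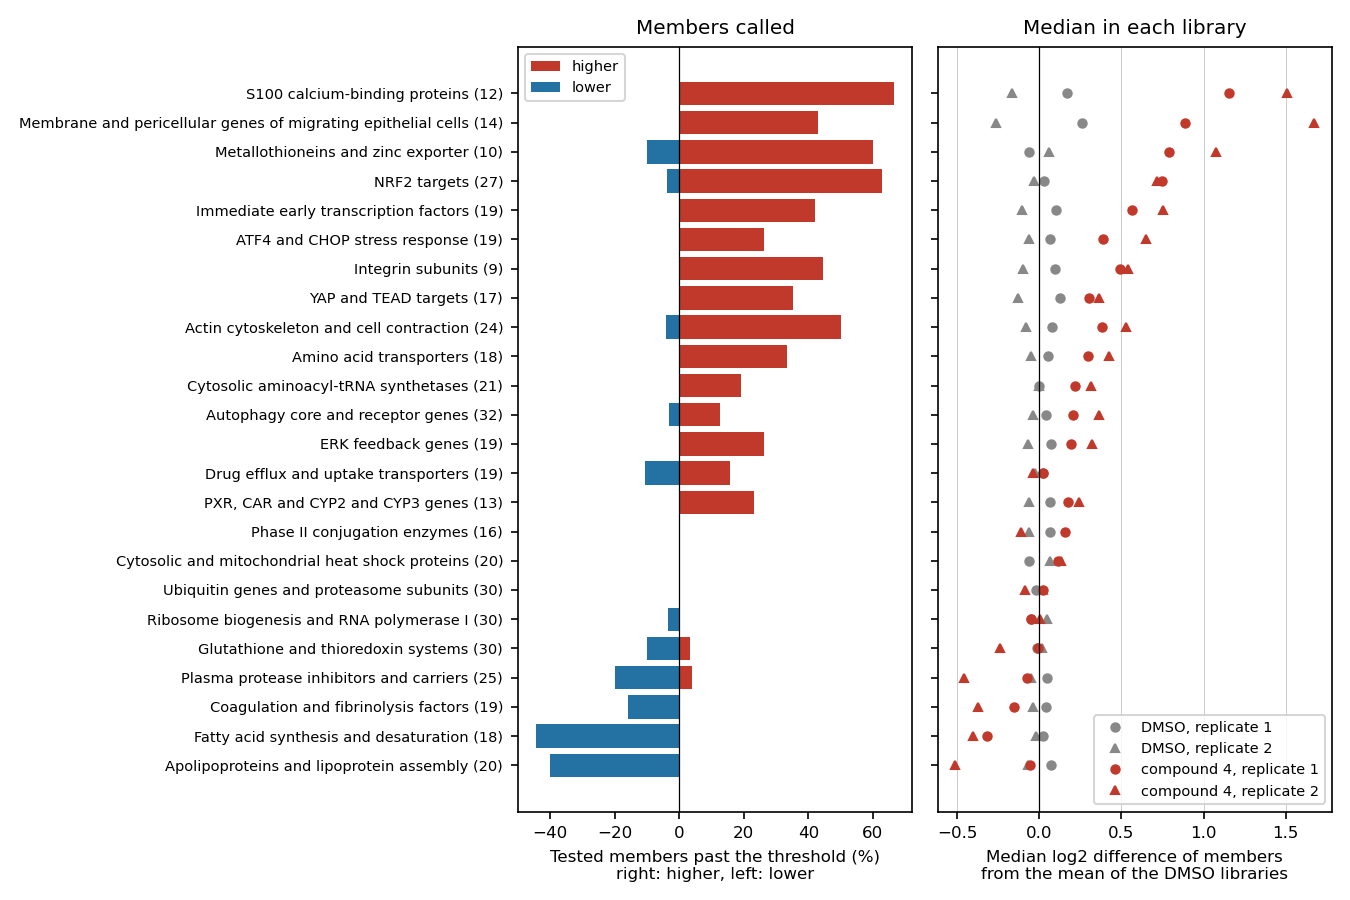
For 24 gene lists, with the number of tested members in brackets, the left panel gives the percent of members past the threshold (higher in red to the right, lower in blue to the left) and the right panel the members' median log2 difference from the DMSO mean, drawn for each of the 4 libraries. The 4 lists at the bottom, of plasma proteins, coagulation, fatty acid synthesis and apolipoproteins, have members lower and none or 1 higher, and the S100 and migration lists have members higher and none lower.

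In the lists of lipoprotein, coagulation and carrier genes, secreted liver proteins that passed the test were lower, with 1 exception. In bulk samples, fewer cells of a type and less RNA per cell cannot be told apart. Of 20 apolipoprotein and lipoprotein assembly genes, 8 fell and none rose, with a median of −0.35. Measured against the DMSO mean, the median of the list was −0.05 in compound 4 replicate 1 and −0.51 in replicate 2. APOC3, which slows the clearing of triglyceride-rich particles, went from 60.2 and 44.2 CPM to 20.5 and 11.3 CPM, APOA1, the main protein of HDL, from 3556 and 3278 CPM to 2171 and 1502 CPM, and MTTP, which loads lipid onto nascent lipoproteins, from 177 and 172 CPM to 123 and 80.8 CPM. The compound 4 replicate 2 library was the lowest in each. Of 19 coagulation genes, 3 fell and none rose. Fibrinogen gamma, FGG, went from 954 and 1072 CPM to 604 and 495 CPM and CPB2, an inhibitor of clot lysis, from 59.9 and 62.7 CPM to 33.6 and 23.1 CPM. Of 25 protease inhibitors and carriers, 5 fell and 1, ITIH3, rose, with 10 past the threshold with the replicate block. HP, haptoglobin, was at 33.9 and 37.9 CPM with DMSO and 16 and 10.1 CPM with compound 4. AFP, the fetal counterpart of albumin and a marker of liver tumours, went from 8663 and 8999 CPM to 6187 and 4598 CPM. Albumin (ALB) itself, at 20660.1 and 19296 CPM with DMSO and 18919.7 and 14369 CPM with compound 4, did not pass (adjusted p = 0.24, edgeR). Of 20 complement and acute phase genes, 2 rose (MASP1 and HAMP) and none fell, with a median of 0.11, and 6 passed with the replicate block.

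Fatty acid synthesis genes that passed were lower. Of 18 tested genes, 8 were lower and none was higher, with a median of −0.35, and the medians of the replicates were −0.32 and −0.40. FASN, fatty acid synthase, stood at 1317 and 1237 CPM with DMSO and at 525 and 575 CPM with compound 4, a log2 fold change of −1.22 ± 0.13 (SE, adjusted p = 0.0021, edgeR). SCD, the desaturase that makes oleate, was at 1958 and 1819.5 CPM and then 844 and 608 CPM, and ACLY, which makes cytosolic acetyl-CoA, at 402 and 396 CPM and then 214 and 217 CPM. These calls and that of ACSS2, which also makes acetyl-CoA, were kept in every refit. Of 23 genes of triglyceride synthesis, lipid droplets and lipases, 3 rose and 4 fell, with a median of −0.04. PNPLA3, a lipid droplet protein, fell from 29 and 31.7 CPM to 7.51 and 6.92 CPM. DGAT2, the last enzyme of triglyceride synthesis, fell from 39.0 and 44 CPM to 20.9 and 16.1 CPM. The droplet coat PLIN2 had a log2 fold change of 0.68, and LPIN2, which also rose, had one of 0.81. Of 22 genes of fatty acid oxidation, 3 fell and none rose, and 6 passed with the replicate block. FADS2 fell from 14.1 and 15.9 CPM to 3.38 and 3.04 CPM and overlaps FEN1, so that its counts are uncertain to that extent. Beside these, 20 of 21 tested cholesterol synthesis genes and 22 of 30 replication and mitosis genes were lower, with medians of −1.58 and −0.79.

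Bile acid genes changed in both directions, 3 of 17 higher and 3 lower. NR0B2, the repressor SHP, rose from 69.6 and 62.7 CPM to 119 and 111 CPM, and NR1H4, the bile acid receptor FXR that drives it, fell from 24.3 and 32.7 CPM to 18.1 and 16.3 CPM. KLB, the coreceptor for the gut hormone that limits bile acid synthesis, fell from 86.3 and 77.1 CPM to 43.8 and 25.9 CPM, and AKR1D1, a bile acid synthesis enzyme, from 5.43 and 6.95 CPM to 2.44 and 1.52 CPM. Of 24 hepatocyte transcription factors, 2 rose and 4 fell. GATA6 and ONECUT1, factors of liver development, had log2 fold changes of −0.83 and −1.19, and ONECUT1 lost its call in DESeq2.

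Other genes lower with compound 4 had no list in common. LIPG, an extracellular lipase, was at 2.77 and 3.43 CPM with DMSO and 0.281 and 0.228 CPM with compound 4. It is already counted above among the triglyceride, droplet and lipase genes that fell. ENSG00000254692, ENSG00000256861 and ENSG00000271793 had 8 to 62 counts in a DMSO library and 0 counts in both compound 4 libraries. Each overlaps other genes on the same strand, so that their counts are uncertain to that extent. BCAM, a laminin receptor, fell from 206 and 197 CPM to 87.1 and 70.0 CPM, P2RY8, a receptor coupled to G proteins, from 10.7 and 8.96 CPM to 2.35 and 1.98 CPM, and KANK4 from 19.9 and 17.1 CPM to 4.69 and 3.65 CPM. The calls of BCAM, P2RY8 and KANK4 were kept in every refit. DHRS2, a mitochondrial reductase, went from 775 and 953 CPM to 406 and 365 CPM, and PEG10, an imprinted gene derived from a retrotransposon, from 2227 and 1919 CPM to 1299.7 and 1065 CPM.

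Most markers of other cell types were absent or low, and LYZ and PDGFRB carried nearly all of the signal of their lists. Their part in the results above was not tested. Of the 10 fibroblast markers, 7 or 8 were at 0 in each library, and COL1A2, DCN, LUM, PDGFRA, THY1 and FAP had no counts in any library. The summed level of the list was 9.22 and 5.11 CPM with DMSO and 23.4 and 25.5 CPM with compound 4, and nearly all of it came from the growth factor receptor PDGFRB, at 9.12 and 5.02 CPM and then 23.2 and 25.3 CPM. Of the 10 endothelial markers, 4 or 5 were at 0 in each library, KDR, TEK, CLDN5 and STAB2 among them. The summed level of that list was 7.69 and 5.53 CPM and then 14.4 and 19.7 CPM, and ESAM, an adhesion molecule, made up most of it with compound 4. Of the 10 blood markers, PTPRC, CD3E and CSF1R were at 0 in all libraries, and the summed level was 2199 and 1862 CPM with DMSO and 1877 and 1425 CPM with compound 4. That sum was nearly all LYZ, lysozyme, which passed, as lower, with the replicate block and not without it. CD68, a lysosomal glycoprotein, rose from 24.7 and 20.1 CPM to 39.3 and 38.6 CPM.

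Compound 4 was then set beside compounds 5 and 6, each given for 24 h at its own IC50, so that the doses were not the same. Between compounds 4 and 5, 42 genes, 0.313% of those tested, passed the test, 25 higher and 17 lower with compound 4. With the replicate block 128 passed, and without compound 4 replicate 1 or 2 it was 9 or 10, and without compound 5 replicate 1 or 2 it was 25 or 11. SLC51B, which was higher than with DMSO, was lower than with compound 5, at 30.3 and 28.7 CPM with compound 4 and 57.2 and 73.3 CPM with compound 5. Of the genes called against DMSO, 1250 did not pass between compounds 4 and 5. These comparisons share the compound 4 libraries, and a missed threshold does not show that the compounds acted alike.

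CYP1A1 was at 10.8 and 9.05 CPM with compound 5 and 15.5 and 23.2 CPM with compound 6, below the 59.5 and 69.1 CPM with compound 4. The log2 difference from compound 5 was 2.70 ± 0.20 (SE, adjusted p = 0.001, edgeR). SLC16A6 was at 14.5 and 11.7 CPM with compound 5 and 25.8 and 26.0 CPM with compound 6, CYP24A1 at 316 and 244 CPM and at 465 and 489 CPM. Both genes were higher with compound 4 than with compound 5 by the test, and their values with compound 6 lay between those with compounds 5 and 4. ABCC3 was at 56.6 and 52.0 CPM with compound 5, near DMSO, and at 133 and 135 CPM with compound 6, which differed from compound 4 by a log2 value of 0.01 ± 0.12 (SE). ATOH8 was at 1.40 and 1.48 CPM with compound 5 and 2.26 and 2.37 CPM with compound 6, against 7.88 and 9.50 CPM with compound 4.

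FGG was at 1225 and 1373 CPM with compound 5 and 720 and 661 CPM with compound 6, so that it was lower with compound 4 than with compound 5 by a log2 value of −1.24 ± 0.13 (SE, adjusted p = 0.0044, edgeR). SLC51A, the other subunit of the bile acid exporter, was at 10.4 and 6.69 CPM with compound 4 and 45.2 and 49.2 CPM with compound 5, and had not passed for compound 4 against DMSO. Between compounds 4 and 6, 0 genes (0%) passed in edgeR, with 945 genes at an unadjusted p under 0.05 and a lowest adjusted p of 0.055, while DESeq2 called 59 and the replicate block 1. The genes called for compound 4 against DMSO differed between compounds 4 and 6 by a median of 0.28 on the log2 scale, whatever the sign.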

How the data were processed

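RNA was sequenced from HepG2 cells overexpressing CYP2C19, 2 samples a group, after 24 h with compound 4, 5 or 6 or DMSO. The authors estimated transcript abundance with Salmon (1.5.0) and summed it to genes with tximeta after quality checks with FastQC (0.12.0), on build GRCh38 per the labels. The authors deposited a table of whole-number counts per gene, not normalized, and tested them with DESeq2 (1.38.3). The library kit keeps strand, while the strand setting of the counting is not given in the sources used here. The column names mark replicate 1 of DMSO and of compound 4 as merged and do not say what was merged. Library totals were 9791659 to 17814595 counts.

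Genes were filtered with edgeR's filterByExpr (minimum count 10), which does not ask for that level in every sample. Counts of all 8 samples were normalized by TMM. They were tested in a single fit with the quasi-likelihood test of edgeR (4.0.16, limma 3.58.1, R 4.3.3) without a replicate term. The p-values were adjusted by Benjamini-Hochberg over 13400 genes at a threshold of 0.05. The procedure was checked on artificial counts with known changes. The alternatives were DESeq2 size factors, DESeq2 (1.42.0), no filter, at least 10 counts in every sample, only the 4 samples compared, a replicate block and each sample left out. The labels name the replicates by day, a pairing shared by all groups. Over genes, the correlation of replicate differences was 0.057 between DMSO and compound 4 and ranged from −0.15 to 0.24 over all pairs of groups. SDs cover 2 samples a group, SEs take their spread from all 8 samples, and the counting floor is 3 counts.

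Genes were named by size of change (the 12 largest each way in fold and in CPM), smallest adjusted p (8 each way), long non-coding RNAs (5 each way), the extreme and the most abundant members of 56 gene lists, and those called between compounds (up to 8). Other genes named are members of those lists. The lists and members were chosen with earlier results of these data known. Genes named outside those rules, the metal response motifs and the aquaporins were chosen after seeing the values. Positions and kinds came from GENCODE 29 and promoters (250 bases before to 50 after the start) from RefSeq (GRCh38.p14). Some members of the lists are counted but not reported here by name.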

Additional observations from a re-analysis of the deposited data

How the results depend on the processing

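The number of genes called for compound 4 against DMSO was 1275. It was 1265 with DESeq2 size factors, 1384 in DESeq2, 1402 with at least 10 counts in every sample, 1553 with only the 4 samples fitted and 2383 without the low-count filter, and between 43 and 922 when 1 sample was left out, where a lone sample is assumed to vary like the other groups. Without the filter, more genes of low count were tested. Of the 1275 calls, 1016 were kept in all 6 refits that held every library, and no call changed sign in any refit where the gene had a value. The labels pair samples by day. With a replicate block 1699 genes were called for compound 4 against DMSO, and the block gave 128 for compound 4 against 5 and 1 against 6. For compound 4 against compound 5 the count of 42 became 194 in DESeq2, 750 without the filter, 65 with at least 10 counts in every sample and 10 with only the 4 samples fitted, with 9 to 25 when a sample was left out. For compound 4 against 6 the count of 0 became 59 in DESeq2, 259 without the filter and 5 with at least 10 counts in every sample, with 0 to 2 when a sample was left out. The cause of these differences was not tested. Of 205 genes followed by name, 171 were called, and DESeq2 ended the call of 10 and added 6, and the block ended 3 and added 9. Leaving out DMSO replicate 2 ended the call of 148, more than any other library. Groups of 2 limit the precision of every estimate, and changes of genes of low count were not detectable where the count was near the floor of 3.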

Other observations

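Water and glycerol channels rose in part, as seen when the gene tables were read rather than by a rule. AQP3, a channel that passes glycerol, stood at 6.35 and 4.44 CPM with DMSO and 47.1 and 97.4 CPM with compound 4. AQP8, a water channel of hepatocytes, stood at 0.512 and 0.586 CPM and then 4.03 and 5.40 CPM. Both passed the test (adjusted p = 0.0097 and 0.0043, edgeR), and AQP7 and AQP11 did not.

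Central metabolism changed in both directions. Of 31 glycolysis and hypoxia genes, 4 rose and 2 fell, where 5.6% of all genes tested rose and 3.91% fell. SLC2A1, the glucose transporter, went from 1465 and 1331 CPM to 2549 and 2718 CPM and overlaps another annotated gene on its strand, ENO2, an enolase, from 64.3 and 65.2 CPM to 114 and 106 CPM, and ALDOC, an aldolase, fell from 106 and 86.3 CPM to 61.3 and 38.6 CPM. Among 22 genes of amino acid catabolism and the urea cycle, 5 rose and 2 fell. KYNU, of the tryptophan route, was at 86.0 and 80.1 CPM and then 162 and 213 CPM, ARG2, a mitochondrial arginase, at 20.8 and 18.9 CPM and then 38.8 and 70.6 CPM, and GLDC, of glycine breakdown, at 109 and 123 CPM and then 67.0 and 62.4 CPM. Of 20 clock genes, NPAS2 and CRY1 rose, at 42.4 and 38.4 CPM and then 60.9 and 68.4 CPM for NPAS2. BMAL1, the partner of NPAS2, was at 5.64 and 5.53 CPM and then 3.28 and 2.97 CPM, and lost its call in DESeq2 and with only the 4 samples fitted. ABCA1, the sterol exporter, fell from 87.9 and 84.4 CPM to 42.1 and 45.2 CPM, while SMPDL3A, another LXR target, rose from 11.8 and 8.63 CPM to 18.9 and 17.2 CPM. MASP1, a complement protease, rose from 50.6 and 37.4 CPM to 107 and 92.1 CPM. Of 18 histone genes, 4 fell and none rose.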
